A study of Danio rerio with 4 samples.

Results

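The contacts described here join the low-coordinate flank of the zebrafish major alpha/beta-globin region to a block of 30 kb on its far side, on chromosome 3 of the danRer7 build. They were measured by 5C, in which fixed chromatin is cut and religated and each read reports the joining of 1 forward and 1 reverse primer. A primer pair was taken as a member when the midpoint of one primer lay below 55.943 Mb and that of the other lay above 55.962 Mb and up to 55.992 Mb. The rule used position only and no read count. It found 1095 of the 6699 primer pairs measured (16.3%). They combine 61 flank primers (29 forward, 32 reverse, from 55888613 upward) with 36 block primers (17 forward, 19 reverse), at distances of 19.1 to 102.9 kb. A primer's name gives its kind (F or R) and its number in the deposited files.

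Globin genes encode the chains of haemoglobin, and vertebrates switch from embryonic to adult globin genes as they develop. Zebrafish carry the embryo-larval and the adult genes of their major locus side by side, each in a block of its own. In mammals the main enhancers of the alpha-globin genes lie in introns of the neighbouring gene nprl3 and act over distance, which is why contacts between the flank of a globin locus and its genes are of interest. Red blood cells of fish keep their nucleus, so that circulating blood still holds chromatin.

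The 4 libraries came from blood cells, 2 of adult fish and 2 of larvae at 18 days post fertilisation. All fish were killed with tricaine and the blood was fixed with 2% formaldehyde for 10 min; the labels give no strain, no genotype, no adult age and no other treatment. The labels speak of biological replicates but do not tie the 2 libraries of a stage to separate pools of fish, so p-values measure the spread between these libraries, which may be partly technical. Gene positions in danRer7 were not used here. In a RefSeq gene table of another assembly (GRCz12tu) the genes run in the order mpg, nprl3, the adult globin genes, the embryo-larval globin genes, kank2 and dock6, but neither gene block was placed on the primers, and positions are given as coordinates. No expression was measured, so that the labelled cell type could not be set against marker genes. In a bulk sample, a contact made in fewer cells and a contact made less often in each cell cannot be told apart.

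Libraries 1 and 2 of a stage are its replicates 1 and 2 in the labels. The adult libraries 1 and 2 held 65450 and 38494 counts in total, and the larvae libraries 1 and 2 held 20801 and 6539. Depth therefore differs between the stages. A count of 0 in a stage allows up to 3 counts over its 2 libraries, and this limit is used for every fold given as "at least". Such limits, and the exact binomial intervals below, cover counting error only, since reads amplified by PCR without molecular identifiers are not independent molecules.

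Flank-to-block pairs were sparse, and most reads fell on few of them. Of the 1095 pairs, 348 had a read in any library and 747 had none. In adult libraries 1 and 2, 287 and 258 pairs had reads (26.2% and 23.6%), against 95 and 68 pairs (8.68% and 6.21%) in larvae libraries 1 and 2. With every library thinned to 6539 counts 14.6% and 13.9% of the members had reads in adults and 6.76% and 6.21% in larvae. Over all 6699 pairs the thinned shares were 19.6% and 19% in adults and 12.7% and 13.1% in larvae. The share of all pairs with reads was thus also lower in larval than in adult libraries. Pairs of the same block with the opposite flank went the other way, with thinned shares of 13.4% and 13.7% in adults and 15.2% and 15.5% in larvae. The 10 strongest members held 28.0% and 29.9% of the member counts in adults and 52.1% and 63.6% in larvae. In adults 32 and 29 pairs were needed to reach 50% of the member counts, and in larvae 10 and 5.

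The libraries of a stage shared many of their pairs. Reads were present in both adult libraries for 254 members (23.2%, all pairs 27.8%) and in both larvae libraries for 62 (5.66%, all pairs 12.2%). In all 4 libraries they were present for 31 (2.83%, all pairs 7.36%). Of the members, 212 (19.4%) had reads in both adult libraries and in no larvae library, against 18.6% of all pairs. Conversely, 30 members (2.74%) had reads in both larvae libraries and in no adult library, against 4.58% of all pairs. The recurrence extended to pairs with only 1 to 3 counts. Of the 111 such members in adult replicate 2, 107 (96.4%, all pairs 94.2%) also had a read in adult replicate 1. In larvae replicate 1, which is shallower, 12 had one (10.8%, all pairs 18.0%). Of the 49 such members in larvae replicate 2, 43 (87.8%, all pairs 89.1%) also had a read in larvae replicate 1. In adult replicate 1, the deepest library, 20 had one (40.8%, all pairs 54.8%). For these members with 1 to 3 counts, the recurrence within a stage was thus near that of all pairs. Members with 11 or more counts in larvae replicate 1 recurred less often in larvae replicate 2 (81.5%, all pairs 95.6%). In adult replicate 1 such members all recurred in adult replicate 2 (100%, all pairs 99.6%), while those with 1 to 3 counts did so less often (66.3%, all pairs 73.3%). Libraries with separate templates and libraries that share one cannot be told apart from these counts.

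Some members are not independent measurements of each other. The primers include 25 couples of 1 forward and 1 reverse primer that lie 103 to 184 bp apart. When both positions of a contact carry such a couple, the contact can be read as forward-to-reverse or as reverse-to-forward, which gives 2 swapped pairs. For 29 such sets within the members both swapped pairs had reads, with exactly equal counts in each of the 4 libraries. For 15 the counts differed, and for 36 both were at 0. In many of the 29 sets the equal larval counts were 0. One set is F135-R260 and F259-R136, each with 122, 60, 25 and 12 counts in adult libraries 1 and 2 and larvae libraries 1 and 2. The rule that assigned reads to pairs is not stated. Counts are therefore also given with each such set counted once, which leaves 319 members with reads.

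As a share of all reads, flank-to-block contacts were slightly larger in adults, and the difference moved with the pairs counted in the total. They took 6.72% and 6.48% of the counts in adult libraries 1 and 2 (95% exact binomial intervals 6.53 to 6.91% and 6.23 to 6.73%), and 5.33% and 5.41% in larvae libraries 1 and 2 (5.03 to 5.65% and 4.88 to 5.99%). The adult mean was 6.60% ± 0.17 and the larval mean 5.37% ± 0.058 (SD, n = 2; two-sided exact permutation test, p = 0.333, the smallest p that 2 against 2 libraries can give). The 3 pairs with the most reads in every library, F165-R224, F165-R236 and F217-R164, are not members because F165 and R164 lie just above the flank limit. With those 3 left out of the total, the share was 7.93% ± 0.015 in adults and 7.68% ± 0.83 in larvae, and the stages overlapped (exact permutation test, p = 1).

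The strongest member, F152-R222, set much of the larval level. It joins 55937435 to 55937464 with 55973515 to 55973544 over 36.1 kb and had 307 and 293 counts in adults and 273 and 122 in larvae. It alone made up 6.98% and 11.8% of the member counts in adult libraries 1 and 2, and 24.6% and 34.5% in larvae libraries 1 and 2 (95% exact binomial interval in the last, 29.5 to 39.7%). Its larval libraries lie above its adult libraries in counts scaled to the library total (CPM). Without this pair the members took 6.02% ± 0.37 of the remaining counts in adults and 3.84% ± 0.32 in larvae, and with the 3 strongest other pairs left out as well, 7.19% ± 0.25 and 5.38% ± 0.050 (SD, n = 2; exact permutation test, p = 0.333 for each). The pair differed between stages by -1.16 ± 0.39 on the log2 scale, adult minus larvae (SE; adjusted p = 0.00482, edgeR quasi-likelihood test), a call that was lost with DESeq2 (adjusted p = 0.137), without a filter on low counts (0.0512, edgeR) and without adult replicate 1 or 2 (0.506 and 0.141, edgeR).

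Contact frequency falls with distance, so the members were also set against other pairs of the same distance. The distance classes were chosen after seeing the data. Without F152-R222, adult members stood above other pairs by the widest margins between 50 and 60 kb and between 70 and 90 kb. With that pair the adult members also stood above other pairs at 30 to 40 kb (119 ± 12 against 84.0 ± 1.2 CPM per pair), and without it below them (58.0 ± 8.5). At 70 to 80 kb the 182 members had a mean of 80.1 and 70.4 CPM per pair in adult libraries 1 and 2, where other pairs had 35.6 and 37.2. In larvae libraries 1 and 2 the order was the other way, with 35.4 and 16.0 CPM per pair in members and 46.5 and 66.2 in other pairs. At 80 to 90 kb the means were 50.8 ± 1.4 in members and 24.0 ± 0.52 in other pairs in adults, and 34.0 ± 3.6 and 48.9 ± 3.7 in larvae (SD, n = 2). From 60 to 90 kb the other pairs themselves stood higher in larvae than in adults, so the reversed order also reflects their level. At 60 to 70 kb they had 25.2 ± 0.68 in adults and 56.2 ± 12 in larvae, where members had 25.4 ± 6.7 and 20.1 ± 0.35 (SD, n = 2). Beyond 90 kb the adult members fell below other pairs (17.2 ± 0.70 against 24.8 ± 1.4).

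**Figure D1:**
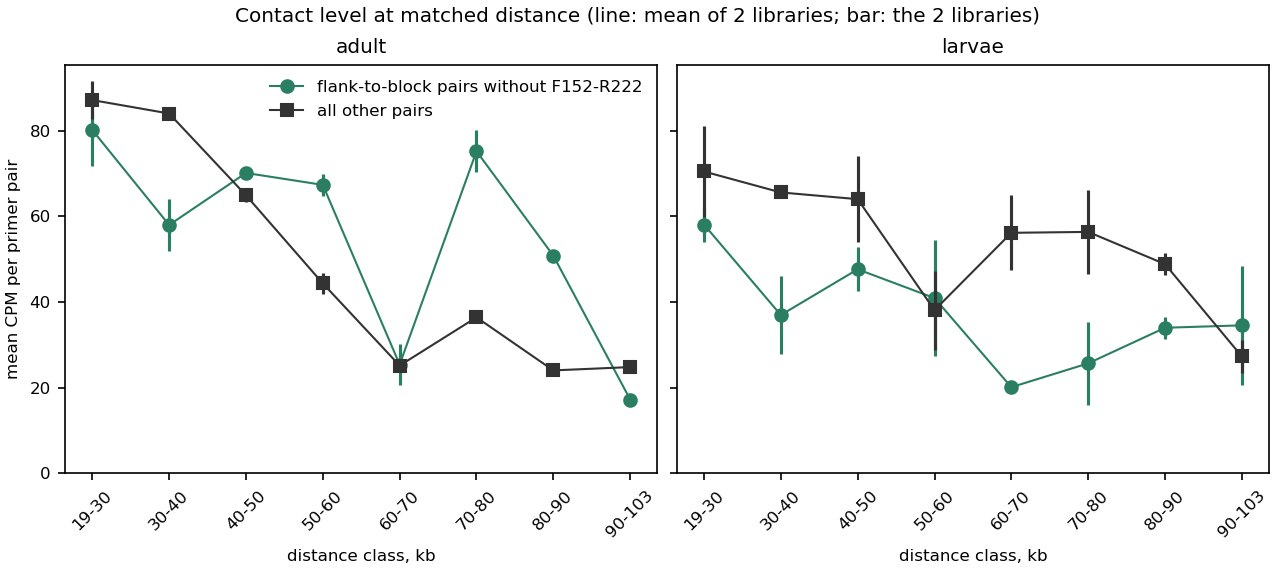
Mean CPM per primer pair (vertical axis) in classes of distance in kb (horizontal axis) for flank-to-block pairs without F152-R222 (circles) and all other pairs without the 3 strongest (squares), with a panel for each stage; symbols are the mean of 2 libraries and bars span the 2 libraries. The members lie above the other pairs at 70 to 90 kb in adults and below them in larvae.

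Summed over all distances, the observed member counts were 1.40 and 1.40 times those of other pairs matched for distance in adult libraries 1 and 2, and 0.873 and 1.03 times in larvae libraries 1 and 2. Without F152-R222 the ratios were 1.30 and 1.24 in adults and 0.659 and 0.674 in larvae. The adult and larval values did not overlap in either form. These ratios also move with the other pairs, which stood higher in larvae from 60 to 90 kb. Contacts of the same flank with the neighbouring stretch from 55.946 to 55.962 Mb were at 1.92 and 1.92 times in adults and 1.13 and 0.835 times in larvae. Contacts of the same block with the opposite flank, above 55.992 Mb, were at 0.558 and 0.641 times in adults and 1.35 and 1.68 times in larvae. The ratio for the neighbouring stretch covers pairs at 19 to 70 kb, and that for the opposite flank pairs at 19 to 60 kb. In each class from 19 to 60 kb the block stood higher with the low flank than with the high flank in adults. In larvae the order was mixed. At 30 to 40 kb the low flank had 196 ± 26 CPM per pair (37.0 ± 13 without F152-R222) and the high flank 118 ± 4.1. At 50 to 60 kb they had 40.9 ± 19 and 19.6 ± 16, and at 19 to 30 kb 58.1 ± 5.8 and 112 ± 17 (SD, n = 2).

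Counts per pair were compared between stages with the edgeR quasi-likelihood test, fitted on all pairs and adjusted over all 679 pairs that passed its filter on low counts. Of the members, 47 passed the filter and 1048 did not. At an adjusted p of 0.05, adults exceeded larvae in 26 of the 47 and larvae exceeded adults in 7, while 14 did not pass. Over all tested pairs the shares were 46.1% and 24.0%, so these counts are close to the background. The median log2 change, adult minus larvae, was 3.16 in the tested members and 1.08 in all tested pairs, but the distance between the medians depended on the pairs counted. It was 1.34 against 0.92 with swapped pairs of equal counts taken once, 1.42 against 0.88 without R224 and R236, 1.69 against 1.20 without the 3 strongest pairs, and -0.37 against 0.02 with thinned libraries, where 5 members were tested. Among the 26 adult-higher members, 23 were without reads in larvae, so they passed the filter through the adult libraries alone. The 4 larvae-higher members without adult reads passed it through the larvae libraries alone. The calls of such members, and the median of 3.16, thus depend on how these pairs entered the test. The same holds for the sums and stretches below that have no read in 1 stage. Of the 26 adult-higher members, 11 stood in sets of swapped pairs with equal counts. With each set counted once, 18 members were higher in adults and 7 in larvae, of 37 tested. Over all 641 pairs tested that way, 285 were higher in adults and 156 in larvae (edgeR).

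These numbers moved with the libraries used. Leaving out 1 library changed the number called among the members and also over all tested pairs. Without adult libraries 1 and 2 the median log2 change was 0.32 and 0.72 in tested members, and 0.45 and 0.59 in all tested pairs. Without larvae libraries 1 and 2 it was 6.34 and 6.43 in tested members, and 6.17 and 3.20 in all tested pairs. Thinning every library to the same depth left 5 members to test. None was then higher in adults (edgeR, also 0 at an unadjusted p of 0.05) and 1 was higher in larvae. Over all 120 pairs tested after thinning, 31 were higher in adults and 38 in larvae (edgeR).

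The adult-higher pairs with the smallest p reached from the far end of the flank into the middle of the block. F70-R222 (55894100 to 55894129 with the same R222 as above) spans 79.4 kb and had 93 and 72 counts in adults and 0 in larvae. This is at least a 15-fold excess in adults (adjusted p = 2.78e-07, edgeR). R222 thus took part both in the contact that made up most of its larval reads with the flank and in a contact read only in the adult libraries. F225-R77 (55975248 to 55975277 with 55897696 to 55897725, 77.6 kb) had 98 and 37 counts in adults and 0 in larvae, and was at least 11.2-fold higher (adjusted p = 7.41e-06, edgeR). F86-R231 and its swapped pair F232-R87, about 77.5 kb apart, each had 88 and 33 counts in adults and 0 in larvae (at least 10.0-fold, adjusted p = 1.77e-05, edgeR). All of these contacts fall in the class of 70 to 80 kb. Their counts are part of the mean of that class given above, so the adult excess there is not separate from them.

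Shorter adult-higher contacts were also at 0 in larvae. F96-R211 had 52 and 41 counts (54.5 kb, at least 8.47-fold), F152-R227 had 44 and 45 (38.1 kb, at least 8.39-fold) and F215-R153 had 64 and 32 (26.2 kb, at least 8.24-fold), with adjusted p-values of 7.44e-05, 8.13e-05 and 8.09e-05 (edgeR). F152-R227 uses the same flank primer as F152-R222, and a block primer close to R222, yet no read of it was found in larvae. The last of the 10 named were F225-R134 (25 and 13 counts, at least 3.28-fold), F237-R73 (27 and 13, at least 3.42-fold) and F257-R97 (30 and 14, at least 3.75-fold). The calls of these last 3 were lost without larvae replicate 1 (adjusted p = 0.220, 0.207 and 0.186, edgeR), and that of F152-R227 without adult replicate 2 (0.0934, edgeR).

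The larvae-higher pairs used other combinations of primers. F215-R139 had 29 and 6 counts in larvae and 0 in adults (30.9 kb, at least 40-fold, adjusted p = 1.12e-09, edgeR). F234-R87 had 36 and 3 (80.7 kb, at least 37.9-fold), F135-R256 had 22 and 3 (58.0 kb, at least 26.3-fold) and F221-R55 had 16 and 3 (84.4 kb, at least 21.3-fold), also with 0 in adults (adjusted p = 1.61e-09, 1.22e-11 and 1.64e-12, edgeR). In all 4 the second larvae library held few reads. As their adult counts were 0, the size of these p-values depends on the fit. It does not rank these pairs by strength of evidence. The call of F221-R55 was lost without adult replicate 1 or 2 (adjusted p = 0.0606 and 0.0934, edgeR).

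The remaining larvae-higher pairs beside F152-R222 were read in both stages. F234-R55, the longest of the named pairs at 92.4 kb, had 15 and 16 counts in adults and 45 and 8 in larvae. Its log2 change was -2.30 ± 0.72 (SE, adjusted p = 0.00247, edgeR). F221-R85 had 11 and 6 in adults and 13 and 3 in larvae (-1.62 ± 0.66, adjusted p = 0.0213, edgeR). F234 and F221 each appear in 2 of the 7 larvae-higher pairs, and so does R55. Leaving out either adult library or larvae replicate 1 ended both calls (adjusted p between 0.15 and 0.265 for F234-R55, and between 0.506 and 0.619 for F221-R85, edgeR). The call of F221-R85 was also lost without larvae replicate 2 (0.0733, edgeR) and with DESeq2 (0.151).

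A group of strong contacts was read in all 4 libraries and did not pass. F135 (55931070 to 55931099), 11.9 kb below the flank limit, holds 3 of the 6 named by level, and another, F259-R136, is the swapped pair of F135-R260. F135-R220 had 116 and 46 counts in adults and 21 and 9 in larvae (log2 change 0.56, adjusted p = 0.405, edgeR). F135-R233 had 106 and 47, and 29 and 12 (0.05, adjusted p = 0.936, edgeR), and F135-R260 changed by 0.43 (adjusted p = 0.49, edgeR). F232-R73, over 82.5 kb, had 93 and 45 counts in adults and 32 and 26 in larvae (-0.78, adjusted p = 0.169, edgeR). F152-R231 had 37 and 36, and 52 and 7 (-1.18, adjusted p = 0.0732, edgeR). A p above the threshold does not show that such a pair was equal in both stages.

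Summing the 19 or 17 block partners of each flank primer gave a profile along the flank. Of the 61 sums, 45 passed the filter on low counts. Adults exceeded larvae in 19 and larvae exceeded adults in 4, while 22 did not pass (edgeR, adjusted over 594 sums of 1 primer with 1 region). Over all these sums the shares were 33.7% and 22.6%. The adult-higher primers were spread over the flank, from R52 at its far end to F163 at the flank limit. Without adult replicate 1 or 2 the adult-higher sums numbered 5 each time, and without larvae replicate 1 there were 12.

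**Figure D2:**
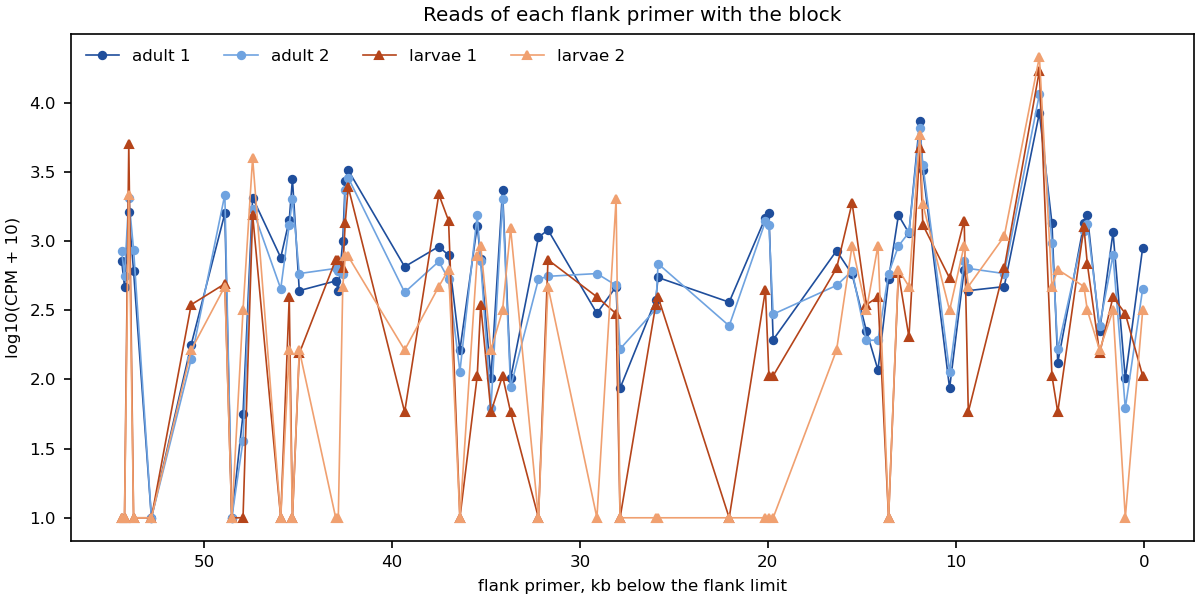
Reads of each of the 61 flank primers with the block, as log10 of CPM + 10 (vertical axis), by distance below the flank limit in kb (horizontal axis), for 2 adult libraries (circles) and 2 larvae libraries (triangles); a value of 1.0 means no read. Adult libraries follow each other along the flank, while larvae libraries drop to no read at many primers and peak at F152, 5.55 kb below the limit.

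The flank primer with the smallest p was R77 (55897696 to 55897725), 45.3 kb below the flank limit. It had 183 and 77 counts with the block in adults and none in larvae, at least a 21.9-fold excess (adjusted p = 1.26e-05, edgeR). The primer itself was read in larvae: with partners within the low flank it had 457 and 295 counts in adults and 186 and 47 in larvae, a log2 change of -0.14 (adjusted p = 0.657, edgeR). With the stretch from 55.946 to 55.962 Mb it was higher in larvae (33 and 23 counts in adults, 50 and 5 in larvae, log2 change -1.68, adjusted p = 0.0135, edgeR). A test added after seeing the data asked whether the stage change of a primer's sum with the block differs from that of all its other partners. For R77 the changes differed by 9.69 ± 1.27 on the log2 scale (SE, adjusted p = 0.000129, edgeR interaction term), and since its larval counts with the block are 0 the size depends on the fit.

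Set against all their other partners together, F100 and F121 showed the same order. F100 (55908874 to 55908903) had 151 and 77 counts with the block in adults and 2 and 2 in larvae (log2 change 3.81 ± 0.75, adjusted p = 0.000227, edgeR), but 604 and 456 in adults and 349 and 74 in larvae with its other partners. F121 (55923045 to 55923074) had 103 and 50 in adults and 2 and 0 in larvae (4.27 ± 0.88, adjusted p = 0.000365, edgeR), against 178 and 71, and 99 and 14, with its other partners. The changes differed by 4.35 ± 0.72 for F100 and 5.11 ± 0.78 for F121 (adjusted p = 0.000364 and 0.000206, edgeR). With the neighbouring stretch F121 was adult-higher too (31 and 24 counts in adults, 4 and 0 in larvae, adjusted p = 0.0461, edgeR). F100 was larvae-higher there (log2 change -0.96, adjusted p = 0.00751, edgeR). Within the low flank F121 was larvae-higher (118 and 39 counts in adults, 94 and 14 in larvae, log2 change -1.30, adjusted p = 0.0111, edgeR). The change of F100 with the block was 2.83 without larvae replicate 1 and 4.49 without larvae replicate 2. With the neighbouring stretch, R52, F56 and F104 had 95 and 31, 110 and 34, and 177 and 90 counts in adults. Larvae had 1 and 4, 0 and 0, and 17 and 3. These sums were adult-higher too (adjusted p = 0.0156, 0.000192 and 0.00383, edgeR). Within the low flank only F104 of these was called (log2 change 2.83, adjusted p = 0.00453, edgeR). With the high flank R52 and F104 were larvae-higher (-1.76 and -3.42, adjusted p = 0.0185 and 0.000296, edgeR). With the block R52, F56 and F104 had 46 and 32, 39 and 33, and 69 and 20 counts in adults and 0 in larvae. These are at least 6.99-fold, 6.62-fold and 7.17-fold excesses. R52 and F56 did not pass without adult replicate 2 (adjusted p = 0.0561 and 0.0780, edgeR), nor F104 without adult replicate 1 (0.0925, edgeR).

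The 4 larvae-higher flank primers were F152, R55, F131 and F129. F152 had 550 and 442 counts in adults and 354 and 140 in larvae, the highest sum in each library (log2 change -0.92 ± 0.27, adjusted p = 0.00636, edgeR). Without its pair with R222 the change of F152 turned to 0.16 (adjusted p = 0.666, edgeR). R55, near the far end of the flank (55888989 to 55889018), had 106 and 78 counts in adults and 104 and 14 in larvae (-1.06 ± 0.38, adjusted p = 0.0215, edgeR). In CPM its second larvae library (2141) lay just above its second adult library (2026), while the first larvae library stood at 5000. F129 had 37 and 23, and 39 and 6 (-1.37 ± 0.55, adjusted p = 0.0372, edgeR), and F131 had 7 and 7, and 8 and 6 (-1.96 ± 0.63, adjusted p = 0.0111, edgeR). Without larvae replicate 1 the changes of R55 and F129 were -0.22 and -0.64 and did not pass (adjusted p = 0.734 and 0.572, edgeR), and that of F131 was -2.69 (0.0241, edgeR). F131 did not pass without larvae replicate 2 (0.0642, edgeR). Without adult replicate 1 or 2 no flank sum was higher in larvae (edgeR; 0 and 1 at an unadjusted p of 0.05), and DESeq2 on all 4 libraries found 1.

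For F135 and F129 the stage change with the block was less adult-weighted than that with their other partners. With the stretch from 55.946 to 55.962 Mb, F135 had 353 and 213 counts in adults and 3 and 1 in larvae (log2 change 5.21 ± 0.51, adjusted p = 6.85e-08, edgeR). With the block the same primer had 485 and 250 in adults and 98 and 38 in larvae (0.45 ± 0.27, adjusted p = 0.171, edgeR). The stage change with the block was lower than that with all other partners by 1.59 ± 0.44 (adjusted p = 0.00776, edgeR). For F129 the difference was -2.37 ± 0.51 (adjusted p = 0.00174, edgeR). The other partners of F129 gave 785 and 531 counts in adults and 151 and 32 in larvae.

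R136 lies next to F135 and shares swapped pairs with it. R136 had 212 and 136 counts in adults and 27 and 12 in larvae (log2 change 1.20 ± 0.39, adjusted p = 0.0116, edgeR). This call was lost without any one of adult replicate 1, adult replicate 2 and larvae replicate 1 (adjusted p = 0.196, 0.297 and 0.0766, edgeR). F86 had 177 and 89, and 28 and 5 (1.15 ± 0.46, adjusted p = 0.0367, edgeR; lost without either adult library and with DESeq2, 0.0724). R87 with 212 and 110, and 51 and 5, and R73 with 134 and 65, and 32 and 26, did not pass (adjusted p = 0.122 and 0.475, edgeR).

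By 5 kb stretches of the flank, the level with the block was uneven. Without F152-R222 the stretch from 55933001 to 55938000 had 71.4 and 79.0 CPM per pair in adults and 81.7 and 71.2 in larvae, so that the stages overlapped. The stretch from 55918001 to 55923000 had 53.5 and 47.4 in adults and 12.7 and 0 in larvae. The stretch from 55893001 to 55898000, which holds F70, R73 and R77, had 68.9 and 60.9 in adults and 19.2 and 39.1 in larvae, and the one next to the flank limit had 46.3 and 35.5 in adults and 20.7 and 18.1 in larvae. At the far end, from 55.888 Mb to 55893000, the values were 33.4 and 41.4 in adults and 50.3 and 21.6 in larvae, which overlap.

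Along the block, 32 of the 36 primer sums with the flank were tested. Adults exceeded larvae in 12 and larvae exceeded adults in 4, and 16 did not pass (edgeR). Over all sums of 1 primer with 1 region the shares were 33.7% and 22.6%, so the adult-higher count is near the background. The adult-higher block primers included 2 runs of neighbours: F223, R224, F225, R227 and F228 between 55973971 and 55975678, and F237, R239, F240 and R241 between 55983770 and 55985331. The others were R218, R258 (33 and 17 counts in adults, 1 and 0 in larvae) and R262 at the block's end (36 and 29, 1 and 0). Within the runs R227 and F228 share swapped pairs, as do F237 and R239, so neighbours in a run are not all independent. Without adult replicate 1 or 2 the adult-higher sums numbered 5 each time, and without larvae replicate 1 there were 6.

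**Figure D3:**
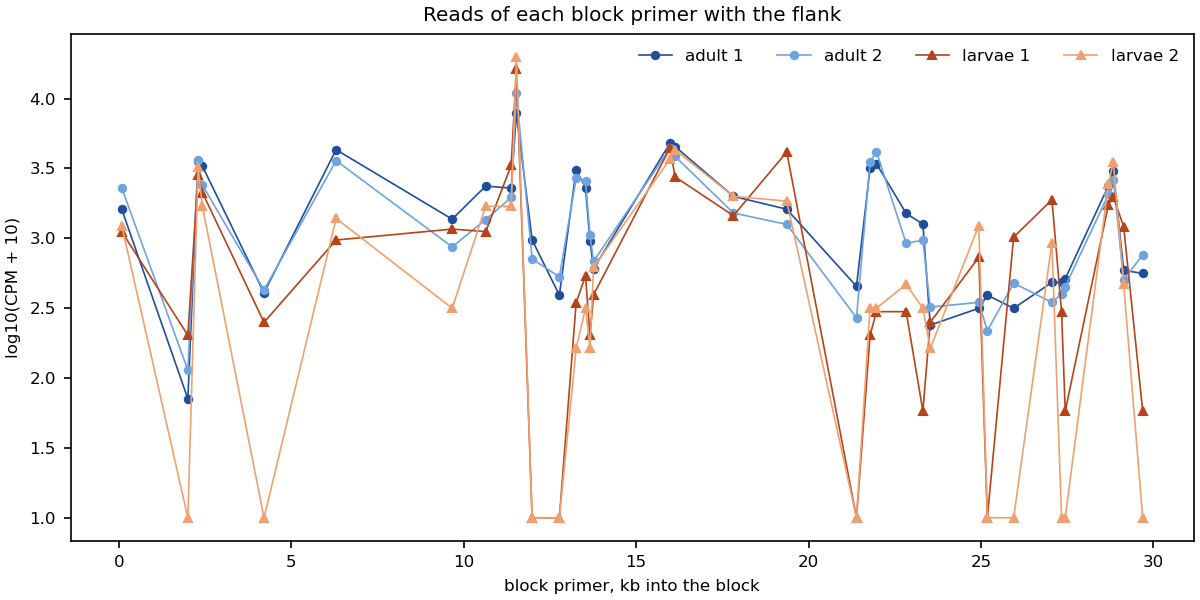
Reads of each of the 36 block primers with the flank, as log10 of CPM + 10 (vertical axis), by distance from the start of the block in kb (horizontal axis), for 2 adult libraries (circles) and 2 larvae libraries (triangles); a value of 1.0 means no read. Larvae lie below adults from 12.0 to 13.7 kb and from 21.4 to 23.3 kb, and above them at R222 (11.5 kb), F234 (19.4 kb), R248 (24.9 kb) and R256 (27.1 kb).

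R239 (55983954 to 55983983) had 223 and 160 counts with the flank in adults and 6 and 2 in larvae. Both larvae libraries lie far below both adult libraries, and the sum was 12.7-fold higher in adults (log2 change 3.69 ± 0.52, adjusted p = 6.06e-06, edgeR). With partners inside the block the same primer had 519 and 264 counts in adults and 130 and 48 in larvae, a log2 change of 0.16 (adjusted p = 0.637, edgeR). With the high flank it was higher in larvae (42 and 24 counts in adults, 73 and 10 in larvae, log2 change -2.06 ± 0.53, adjusted p = 0.00218, edgeR). Its stage change with the low flank exceeded that with all other partners by 3.81 ± 0.58 (adjusted p = 0.000204, edgeR). Those other partners had 599 and 319 counts in adults and 207 and 58 in larvae.

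F237 lies 184 bp from R239, and the 2 primers share swapped pairs, so their sums are not independent. F237 had 207 and 135 counts with the flank in adults and 4 and 2 in larvae (13.4-fold, log2 change 3.90 ± 0.58, adjusted p = 1.16e-05, edgeR), against 298 and 148, and 58 and 16, with partners in the block (0.68 ± 0.31, adjusted p = 0.0673, edgeR). F225 (55975248 to 55975277) had 202 and 103 with the flank in adults and 7 and 1 in larvae (11.8-fold, 3.34 ± 0.59, adjusted p = 6.59e-05, edgeR). Inside the block F225 went the other way, with 370 and 264 counts in adults and 173 and 100 in larvae (-0.86 ± 0.29, adjusted p = 0.0158, edgeR). R218 (55968287 to 55968316) had 281 and 138, and 20 and 9 (3.37-fold, 1.86 ± 0.39, adjusted p = 0.00047, edgeR; 0.0923 without adult replicate 1). Without larvae replicate 1 the change of F225 with the flank was 4.24.

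F223 and R224 had 63 and 27, and 25 and 20 counts with the flank in adults and 0 in larvae. These are at least 7.58-fold and 4.11-fold excesses in adults. F223 was also adult-higher with the neighbouring stretch (54 and 33 counts in adults, 0 in larvae, adjusted p = 0.000512, edgeR). With the high flank F223 had 76 and 51, and 8 and 0 (log2 change 2.17, adjusted p = 0.0133, edgeR). Inside the block the change of F223 did not pass (0.68, adjusted p = 0.209, edgeR). R224 is one of the primers of the 3 strongest pairs and was read 1781 and 789 times in larvae with its other partners. R224 and R236 had near-equal counts with F165 in each library, so that the position behind their reads is uncertain. R224 did not pass without adult replicate 1 or larvae replicate 1 (adjusted p = 0.0925 and 0.101, edgeR).

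The larvae-higher block primers were R222, F234, R248 and R256. R222 had 514 and 418 counts with the flank in adults and 336 and 130 in larvae (log2 change -0.92 ± 0.27, adjusted p = 0.00641, edgeR), and without F152-R222 the change turned to 0.47 (adjusted p = 0.304, edgeR). Its stage change with the flank differed from that with its other partners by 0.02 ± 0.46 (adjusted p = 0.979, edgeR). R256 (55989044 to 55989073) had 31 and 13, and 39 and 6 (-1.85 ± 0.58, adjusted p = 0.00884, edgeR), whereas its other partners gave 289 and 138 in adults and 38 and 5 in larvae. The changes differed by -3.37 ± 0.54 (adjusted p = 0.000315, edgeR). F234 had 105 and 48, and 86 and 12 (-1.14 ± 0.42, adjusted p = 0.0244, edgeR), and R248 had 20 and 13, and 15 and 8 (-1.46 ± 0.61, adjusted p = 0.0465, edgeR). Most larval counts of F234 came from F234-R55 and F234-R87, and many of those of R256 from F135-R256. The sums of F234 and R256 are thus not separate from those named pairs. Without larvae replicate 1 the changes of F234 and R256 were -0.33 and -1.12 and did not pass (adjusted p = 0.648 and 0.311, edgeR), and R248 did not pass without either larvae library (0.0622 and 0.137, edgeR). With DESeq2, F234 and R248 were not called (adjusted p = 0.105 and 0.148). Without adult replicate 1 or 2 no block sum was higher in larvae (edgeR; 0 and 1 at an unadjusted p of 0.05), and DESeq2 on all 4 libraries found 2.

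The other strong block primers, R231 (313 and 169 counts in adults, 92 and 24 in larvae), F232 (296 and 148, 57 and 28) and F215 (235 and 139, 59 and 21), did not pass (log2 changes 0.17, 0.34 and 0.29, adjusted p = 0.629, 0.366 and 0.459, edgeR). R231 and F232 lie in the middle of the block, at 55977968 to 55978145, between both runs of adult-higher primers. F232 turned to -0.42 with swapped pairs of equal counts taken once (adjusted p = 0.351, edgeR).

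Many block primers were more adult-weighted with the flank than with their own other partners. Of 35 block primers tested, the change with the flank was higher towards adults in 17 and higher towards larvae in 2 (R256 and F234). Over all 623 sums tested this way, 29.7% were more adult-weighted and 20.1% more larvae-weighted than the primer's other partners. Of 47 flank primers tested with the block, 16 were more adult-weighted and 6 more larvae-weighted. The largest such change among block primers with reads in all 4 libraries was that of R241, chosen after its values were seen. It had 82 and 37 counts with the flank in adults and 1 and 2 in larvae, but 35 and 25 in adults and 87 and 32 in larvae with its other partners (difference 6.14 ± 0.78, adjusted p = 0.000111, edgeR). The block count of 17 was 15 with swapped pairs taken once and 19 without F152-R222. It was 10 and 11 without adult libraries 1 and 2, 17 and 20 without larvae libraries 1 and 2, and 6 of 18 tested with all libraries thinned to one depth. A primer is tested in up to 5 regions, so a high value in one region lowers that in the others. Sums entered this test on their total count over the 4 libraries. Among those called more adult-weighted, block primers F223, R224, R236 and F250 had no larval read with the flank. Flank primers R52, F54, F56, R75, R77, F104 and R132 had none with the block. These sums entered through the adult libraries alone, so their calls depend on how they entered the test.

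By 5 kb stretches of the block, the ratio of adult to larval level with the flank was widest from 55983001 to 55988000. There the members had 39.8 and 40.3 CPM per pair in adult libraries 1 and 2 and 10.1 and 9.97 in larvae libraries 1 and 2. In the next stretch, up to the block's end, the values were 37.6 and 33.5 in adults and 33.8 and 34.6 in larvae, which overlap. From 55968001 to 55973000 they were 89.0 and 64.4 in adults and 35.8 and 37.4 in larvae. From 55973001 to 55978000, without F152-R222, they were 68.0 and 65.2 in adults and 44.9 and 28.7 in larvae. From 55978001 to 55983000 the stages overlapped (87.2 and 71.0 in adults, 89.4 and 87.2 in larvae). The first 2 stretches, up to 55968000, were also lower in larvae, with 55.3 and 78.8 in adults against 38.1 and 42.2 in larvae, and 60 and 53.4 against 44.1 and 40.1. With F152-R222 left out, both stretches where the stages overlapped thus lie in the second part of the block. These values use library totals that include the 3 strongest other pairs. Without those pairs the totals are 55510 and 31388 in adults and 15641 and 4284 in larvae, a larger relative fall in larvae. On these totals both larvae libraries lie above both adult libraries in each of the overlapping stretches. The overlap thus depends on the total used.

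**Figure D4:**
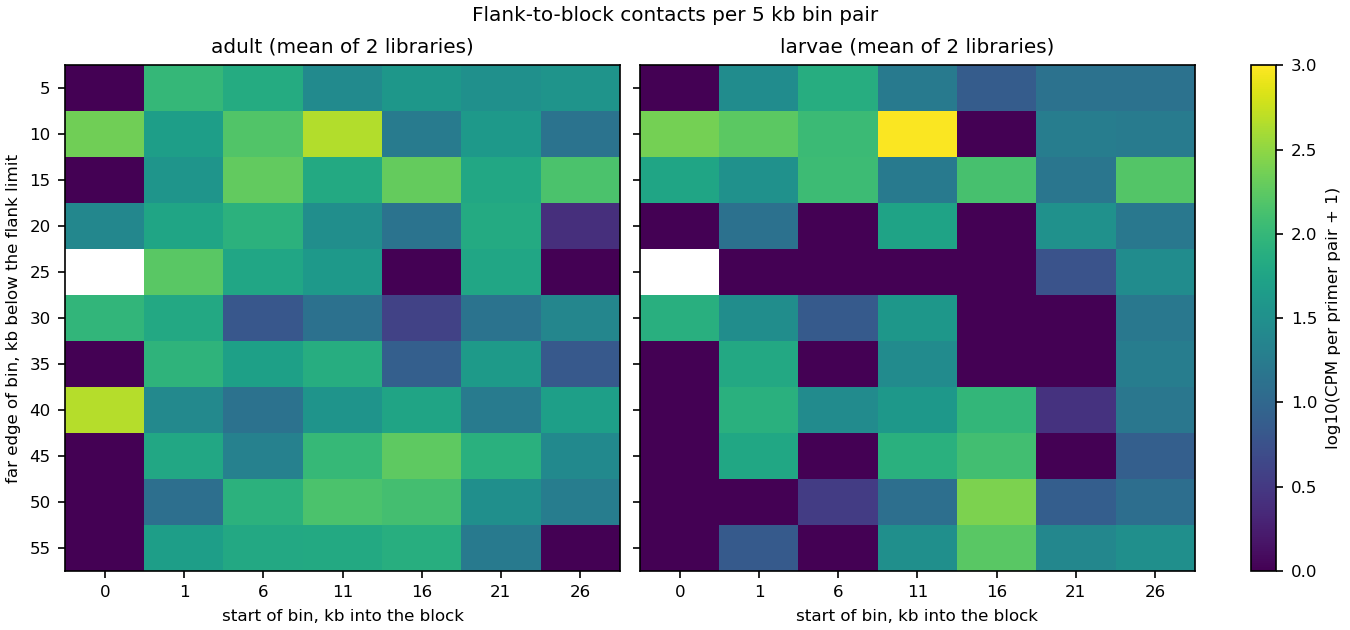
Contacts between stretches of the flank (rows, far edge in kb below the flank limit) and of the block (columns, start in kb from the start of the block), coloured by log10 of mean CPM per primer pair + 1, for adults and larvae (mean of 2 libraries each); stretches are 5 kb, cut at the limits of the regions, and white marks a combination without a primer pair. Reads fell in 67 of the 76 combinations in adults and in 53 in larvae, without thinning, and the larvae libraries were shallower. The highest larval value is in the row at 10 kb and the column at 11 kb.

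Of the 76 combinations of a flank stretch with a block stretch, 50 were tested. Adults exceeded larvae in 18 and larvae exceeded adults in 2, and 30 did not pass (edgeR). Over all 312 combinations tested in the region the shares were 33.0% and 18.9%. The flank stretch from 55893001 to 55898000 with the block stretch from 55973001 to 55978000 had 298 and 159 counts in adults and 2 and 4 in larvae (12.3-fold, log2 change 4.32 ± 0.59, adjusted p = 2.73e-11, edgeR). It holds F70-R222 and F225-R77. Its change was 2.95 without larvae replicate 1 and 5.70 without larvae replicate 2, with larval levels of 96.1 and 612 CPM. The block stretch from 55983001 to 55988000 took part in 3 of the 6 named combinations. With the flank stretch from 55898001 to 55903000 it had 113 and 97 counts in adults and 0 in larvae (at least 19.3-fold). With the one from 55908001 to 55913000 it had 59 and 40, and 0 (at least 8.84-fold), and with the one from 55928001 to 55933000 it had 140 and 90, and 5 and 5 (4.45-fold, 2.59 ± 0.67, adjusted p = 0.000479, edgeR). The last 2 did not pass without adult replicate 2 (adjusted p = 0.0665 and 0.0981, edgeR), and the last one also not without adult replicate 1 (0.0917, edgeR). The change of the last one was 1.67 without larvae replicate 1 and 3.45 without larvae replicate 2.

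Both larvae-higher combinations started from the flank stretch 55933001 to 55938000. With the block stretch that holds R222 it had 437 and 401 counts in adults and 327 and 133 in larvae (log2 change -0.96 ± 0.27, adjusted p = 0.00139, edgeR), which turned to 0.22 without F152-R222 (adjusted p = 0.691, edgeR). With the block stretch from 55963001 to 55968000 it had 34 and 9, and 33 and 8 (-1.77 ± 0.67, adjusted p = 0.0199, edgeR). Neither was called without adult replicate 1 or 2. Adult-higher combinations numbered 7 and 2 without adult libraries 1 and 2, 9 without larvae replicate 1 and 11 with DESeq2.

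The order of the primers by their reads was shared best within a stage. Over the 61 flank primers the sums with the block gave a Spearman correlation of 0.92 between the adult libraries, 0.61 between the larvae libraries and 0.38 to 0.52 between stages. Over the 36 block primers these values were 0.96, 0.88 and 0.56 to 0.74. These correlations are across primers, which share libraries and swapped pairs, and are given as descriptions. Pearson correlations leaned on F152-R222: between the larvae libraries the value over flank primers was 0.95 with this pair and 0.73 without it.

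Beside the flank limit the counts changed abruptly. F163, the last flank primer (55942931 to 55942960), had 58 and 17 counts with the block in adults and 2 and 2 in larvae. The next primers, R164 and F165, had 3629 and 2449, and 6777 and 4851 in adults. In larvae they had 1702 and 719, and 3532 and 1544, which in CPM is above the adult level with the strongest pairs included. Most of these counts came from those pairs, which each join R164 or F165 to the block. Leaving those pairs out lowered the adult library totals from 65450 and 38494 to 55510 and 31388. The larval totals fell from 20801 and 6539 to 15641 and 4284. The counts that R164 and F165 together keep with the block are then lower in larvae than in adults in CPM. Whether a step remains at the limit without those pairs was not tested. At the block's start R211, the first primer inside, had 105 and 88 counts with the flank in adults and 23 and 8 in larvae, and F210, the last outside, had 118 and 89, and 2 and 13. At the block's end R262 inside had 36 and 29, and 1 and 0, and F263 outside had no read with the flank.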

How the data were processed

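Each library came as a matrix of whole-number read counts per forward and reverse primer, as the authors deposited it, not normalized. The submitters' processing notes name Bowtie2 2.2.2, bcl2fastq 1.8.4 and the build danRer7; no source used here gives the counting rule. Totals ran from 6539 to 65450 counts.

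Members were selected by primer midpoint. Counts of pairs, of sums per primer and partner region, and of pairs of 5 kb stretches (from 55.888 Mb, cut at region limits) were each tested over the whole matrix by the quasi-likelihood test of edgeR 4.0.16, run in R 4.3.3 (TMM factors, filterByExpr with minimum count 10 and minimum total 15, stage as the only term), with Benjamini-Hochberg adjustment at 0.05. Log2 changes are adult minus larvae, and standard errors derive from the quasi-likelihood F. CPM uses library totals. DESeq2 1.42.0, library totals, no filter, thinning, a replicate block, other limits, leaving out strong pairs and leaving out each library were alternatives.

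The members and lists were chosen with earlier results of these data known. Distance classes, swapped pairs counted once, leaving out F152-R222 and the edgeR interaction term (a primer's sum in 1 region against its other partners, with library as a term) were added after seeing the data. Scripts were tested on simulated data; the interaction test was held to a laxer recovery limit there after it missed the first one set, so that a primer it did not call is not shown to be unchanged. Named pairs were the 10 with the smallest adjusted p in each direction whose stages do not overlap, and the 5 with the highest mean CPM in each stage; named primers and stretches were the 6 and 5 by the same rules. Primer sequences were not used here.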

Additional observations from a re-analysis of the deposited data

How the results depend on the processing

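Shares of members moved with the pairs counted. In adults and larvae they were 7.93% and 7.68% without the 3 strongest other pairs, 7.38% and 6.79% without R224 and R236, 6.41% and 5.29% with the flank limit at 55.940 Mb, 5.75% and 4.75% with the block from 55.965 Mb, 5.95% and 5.21% with swapped pairs taken once, and 6.02% and 3.84% without F152-R222. Leaving out 1 library gave 6.48 to 6.72% in adults and 5.33 to 5.41% in larvae. The adult mean stayed above the larval mean in each of these. Without the 3 strongest other pairs the libraries overlapped, with 7.92% and 7.94% in adults and 7.09% and 8.26% in larvae.

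Thinning to one depth left few features to test. Over all 120 pairs tested it called 31 adult-higher and 38 larvae-higher (edgeR). Over all 292 sums it called 65 and 63, and over all 134 stretch combinations 35 and 23. It called 0 members adult-higher and 1 larvae-higher, 4 and 0 flank sums, 6 and 0 block sums, and 3 and 1 stretch combinations (edgeR; at an unadjusted p of 0.05 the larvae-higher flank and block sums numbered 1 and 2). For the difference from other partners it called 2 and 1 flank primers and 6 and 0 block primers (unadjusted, 1 block primer more larvae-weighted). Without a filter 116 of 348 members were adult-higher and 40 larvae-higher, against 914 and 426 of 2508 pairs over the whole matrix (edgeR). In that setting 6 stretch combinations were larvae-higher. Library totals in place of TMM factors moved the median change (log2) over the pairs tested from 1.08 to 0.97, and called 26 and 8 members. The median over tested members moved from 3.16 to 3.07 with library totals, to 1.34 with swapped pairs taken once, to 1.42 without R224 and R236, to 1.69 without the 3 strongest pairs, to -0.37 when thinned, to 0.32 and 0.72 without adult replicate 1 or 2, and to 6.34 and 6.43 without larvae replicate 1 or 2. DESeq2 called 1 flank sum and 2 block sums larvae-higher and 11 stretch combinations adult-higher. Without F152-R222, 1 stretch combination was larvae-higher.

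Leaving out 1 library gave 7 to 45 adult-higher and 3 to 10 larvae-higher members, 5 to 22 and 0 to 5 flank sums, 5 to 15 and 0 to 3 block sums, and 2 to 26 and 0 to 5 stretch combinations (for the last, 1 and 2 larvae-higher at an unadjusted p of 0.05 without adult replicates 1 and 2). More adult-weighted than with other partners were 6 to 18 flank and 10 to 20 block primers, and more larvae-weighted were 1 to 9 and 1 to 3. With 1 library left in a stage, that library is assumed to vary like the other stage. The stage calls over all pairs, sums and combinations tested moved as well. The cause of these moves beyond fewer libraries was not tested.

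With the replicate number as a block, 2 flank sums and 2 block sums were larvae-higher, and 10 and 1 stretch combinations were adult-higher and larvae-higher. The numbers only name the libraries: the deviations of adult replicate 1 and larvae replicate 1 from their stage means correlated at 0.0059, so the block does not stand for a pairing.

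Direction turned for some features. F135-R233 changed to -0.068 with library totals and -0.19 when thinned, and lay between -0.20 and 0.41 without 1 library. F135-R260 and F259-R136 changed to -0.36 and -0.37 when thinned. Without F152-R222 the flank sum of F152 was 0.16, the block sum of R222 0.47 and the stretch combination of both 0.22. Without 1 library R73 lay between -1.05 (without larvae replicate 1) and 0.33 (without larvae replicate 2), and F232 between -0.0033 and 0.65. F232 turned to -0.42 with swapped pairs taken once. The combination of the flank stretch from 55893001 with the block stretch from 55978001 lay between -1.37 (without larvae replicate 1) and 0.075 (without larvae replicate 2). That of the flank stretch from 55928001 with the block stretch from 55988001, at 277 and 137 counts in adults and 74 and 34 in larvae, was 0.042 without a filter, 0.11 without the 3 strongest pairs, 0.11 without R224 and R236, 0.013 without F152-R222, and between -0.28 and 0.39 without 1 library. None of these turned values passed the test. Over the named features, 650 values under an alternative kept their direction and side of the threshold, 91 lost and 11 gained the call, and 19 turned.

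Depth limits the larval side. A count of 0 in larvae allows 3 counts over 2 libraries, and in larvae replicate 2 few members had more than that.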

Other observations

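The split of flank-to-block reads by orientation was close to even once F152-R222 was left out. Pairs with the forward primer in the flank held 55.6% and 56.8% of the remaining member counts in adult libraries 1 and 2, and 50.5% and 56.5% in larvae libraries 1 and 2, over 551 pairs in one orientation and 544 in the other.

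Counts of members could also add up across neighbouring primers. F86-R222 had 46, 19, 28 and 5 counts in adult libraries 1 and 2 and larvae libraries 1 and 2. F221-R85 (11, 6, 13 and 3) and F221-R87 (35, 13, 15 and 2) sum to exactly these values in each library. This set was chosen after its values were seen.

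The flank primers also contacted the stretch from 55.943 to 55.946 Mb, with adult counts at 2.90% ± 0.29 of the total and larval counts at 1.71% ± 0.17 (SD, n = 2; exact permutation test, p = 0.333). Contacts within the block took 5.19% ± 0.20 in adults and 8.49% ± 0.030 in larvae, and contacts within the low flank took 10.2% ± 0.18 and 10.6% ± 1.5, where the stages overlapped. F100, F104 and F135 had 97 and 87, 61 and 19, and 135 and 80 counts with the stretch from 55.943 to 55.946 Mb in adults and 0 in both larvae libraries.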
